A study of Rattus norvegicus with 47 samples.

Results

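Genes of platelets and of the megakaryocytes that shed them, 10 in number, were followed in whole blood of rats over the day after a stroke: Itga2b, Itgb3, Gp5, Gp9, Pf4, Ppbp, Treml1, Vwf, Sdpr and Clu. They were chosen by gene symbol for their known place in platelets, with earlier results of these data known, and each was read from the probe set of that symbol with the highest mean signal. Of the 10 genes, 9 were found among the 20935 gene symbols of the array table, each with 1 probe set of the 27596 on the array, and no probe set carried the symbol Itgb3. A symbol stands on 21406 of the probe sets, and the paper lists Itgb3 among the genes it ranked on this array. Itgb3 was thus on the array but was not matched by symbol here, and measured below means matched by symbol. Blood mRNA was measured on Affymetrix RaGene 1.0 ST arrays in 8 male spontaneously hypertensive rats (SHR), an inbred strain with high blood pressure, aged 16 weeks, in which the middle cerebral artery (MCA) was blocked with a thread that was later withdrawn. Samples were drawn from each rat at 0 h, before anesthesia and occlusion, and at 1, 2, 3, 6 and 24 h post MCA occlusion, which gave 8 arrays per time point and 7 at 6 h. The tail vein was the source up to 6 h and the heart, after an isoflurane overdose, at 24 h, so the site of sampling and the 24 h time point cannot be told apart. The tail-vein blood was taken into heparin, and RNA came from the cell pellet left after plasma was drawn off. The thread was withdrawn under renewed anesthesia between the 1 h and 2 h samples, so all samples from 2 h on follow reperfusion. No sham-operated rats were included, so the effects of occlusion, reperfusion, anesthesia, surgery and repeated sampling cannot be told apart.

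Megakaryocytes of the bone marrow make platelets, which have no nucleus and carry mRNA inherited from their parent cell. Platelets bind damaged vessel walls through the glycoprotein Ib-IX-V complex, which holds von Willebrand factor, and bind each other through the integrin made of Itga2b and Itgb3. When activated they release alpha granules filled with chemokines, adhesive proteins and clotting factors, and platelet genes of this kind are switched on in megakaryocytes by factors of the GATA and ETS families.

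Promoter sequence is shown for 4 members to set those that hold the letters of these factors beside one that does not. Each line gives the 120 bases up to the transcription start, 5′ to 3′ on the gene's strand, from RefSeq on GRCr8, with the GATA letters (AGATAA or AGATAG or TGATAA or TGATAG) and the ETS letters (AGGAAG or CGGAAG), searched on both strands, in capitals.
Itga2b, chr10:87925834-87925953, minus strand: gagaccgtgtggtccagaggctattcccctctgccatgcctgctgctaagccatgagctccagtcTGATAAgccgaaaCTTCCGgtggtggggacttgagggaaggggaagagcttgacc
Gp5, chr11:83948387-83948506, plus strand: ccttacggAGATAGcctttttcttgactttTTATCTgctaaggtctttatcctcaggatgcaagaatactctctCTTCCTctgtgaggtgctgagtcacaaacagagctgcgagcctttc
Gp9, chr4:121792722-121792841, plus strand: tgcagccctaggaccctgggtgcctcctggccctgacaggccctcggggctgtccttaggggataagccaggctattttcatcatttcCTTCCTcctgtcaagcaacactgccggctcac
Treml1, chr9:20139934-20140053, minus strand: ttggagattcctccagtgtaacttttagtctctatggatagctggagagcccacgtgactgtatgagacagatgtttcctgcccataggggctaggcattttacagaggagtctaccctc

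Itga2b has GATA letters 55 to 50 bases before its start and ETS letters 42 to 37 bases before it, read there as CTTCCG on the gene's strand. Gp5 has GATA letters at 112 to 107 and at 90 to 85 bases before the start and ETS letters at 46 to 41. Gp9 has ETS letters 32 to 27 bases before its start, and the Treml1 stretch has neither. RefSeq promoters were at hand for 6 of the 9 members. In the 250 bases before the start, 2 of the 6 held GATA letters, 4 held ETS letters and 2 held both, against 27.0%, 39.4% and 9.81% of all 33469 rat promoters of that length. Sdpr had 1 ETS match, 157 to 152 bases before its start, and Ppbp had none. The 10 matches did not overlap one another. Letters in a sequence do not show that a factor was bound there.

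Most of the platelet genes were above their starting level at 1 h and at 24 h by the test, and at 6 h only Sdpr was. Direct comparisons of the later times called fewer genes, 2 lower at 6 h than at 1 h and 4 higher at 24 h than at 6 h. Of the 9 measured, 6 were called higher at 1 h (21.7% of all probe sets were), 4 at 2 h (21.7%) and 4 at 3 h (27.3%). The 6 h comparison called 1 (22.5%) and the 24 h comparison 7 (17.4%), all at a false discovery rate (FDR) below 0.05. Changes are differences on the log2 scale between the authors' mean for the later time point and that for 0 h, and each was tested in limma's moderated model, rebuilt from the deposited means, standard deviations and array numbers, with the FDR taken over all 27596 probe sets. No member was called lower than at 0 h at any time, where 15.4%, 18.6%, 19.2%, 19.3% and 13.9% of all probe sets were, and none was lower at an unadjusted p below 0.05 either. The 5 median changes of the 9 genes were 0.39, 0.28, 0.24, 0.11 and 0.37 in time order, beside medians of 0.05, 0.05, 0.07, 0.05 and 0.04 over all probe sets. The largest change was 1.68-fold. With the means of each time point centred on their median, 2 of the 9 genes were called higher at 2 h and 2 at 3 h, while 5, 1 and 6 were called at 1, 6 and 24 h. All comparisons with 0 h share the same 0 h arrays, and the model counts the arrays as independent although each rat gave several. In whole blood a larger number of platelets and more RNA per platelet cannot be told apart.

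**Figure D1:**
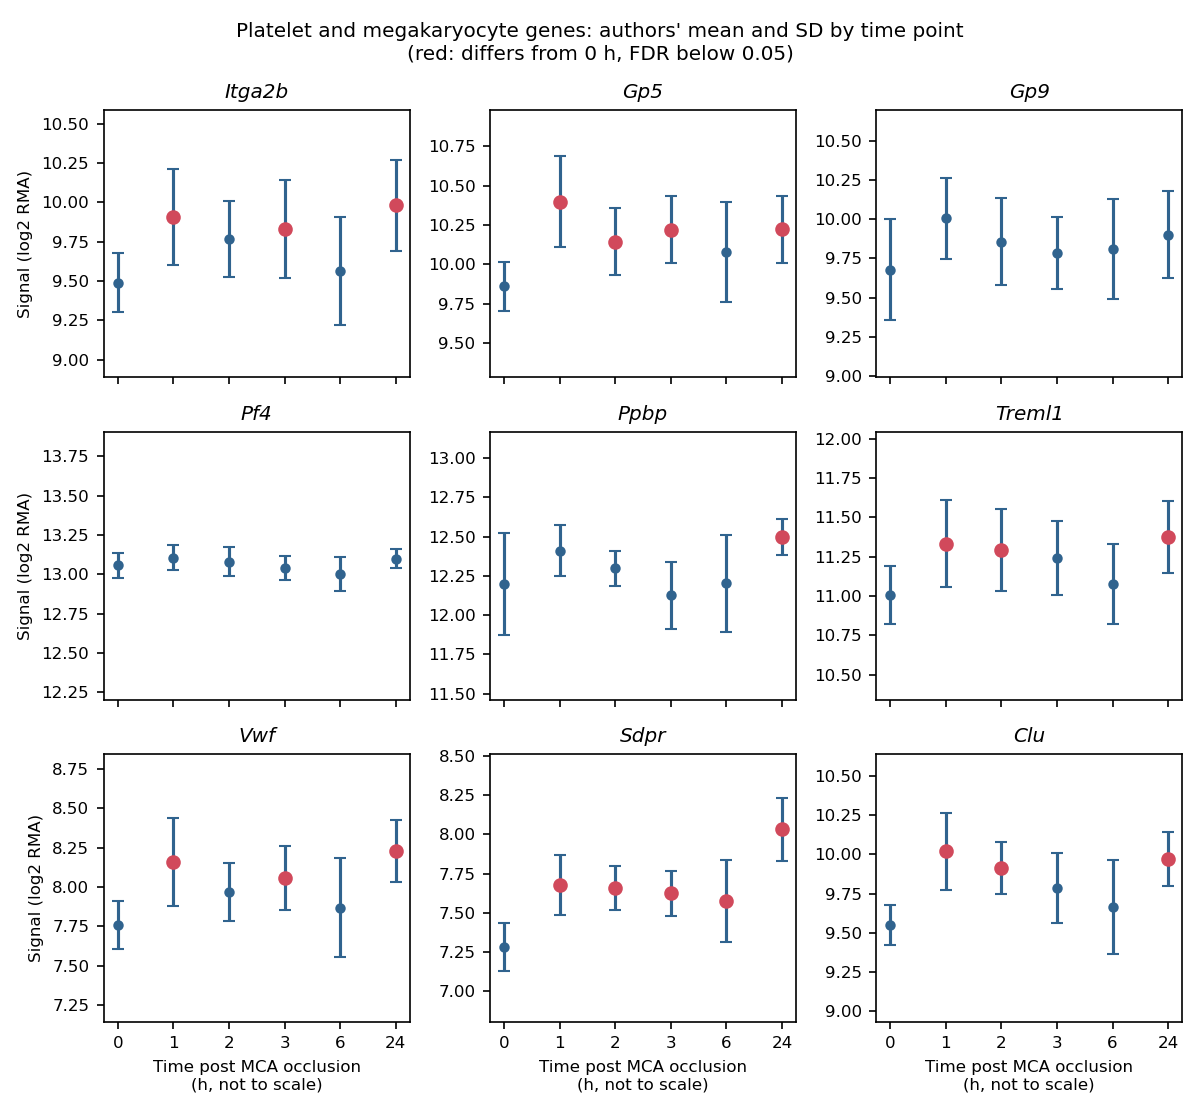
Signal of the 9 measured platelet genes at each time point (log2 RMA, vertical axis) against hours post MCA occlusion (horizontal axis, not to scale). Points are the authors' means over 8 arrays, or 7 at 6 h, bars are their SDs, all panels cover the same span, and red points differ from 0 h at an FDR below 0.05. Pf4 stayed between 13.001 and 13.10, whereas Sdpr went from 7.28 to 8.03.

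Over the whole course, 7 of the 9 genes varied in the moderated F-test, as did 55.5% of all probe sets, and the 2 that did not pass were Gp9 and Pf4. With centred means 6 genes passed, with Treml1 lost. Without the 24 h arrays 5 genes passed (53.5% of all probe sets), with Ppbp and Treml1 lost. Without the 0 h arrays, an alternative added after the values were seen, 2 genes passed (28% of all probe sets), Ppbp and Sdpr. In 7 of the genes the largest change exceeded the highest SD of any time point, by a ratio from 1.02 in Gp9 to 2.87 in Sdpr. For Ppbp and Pf4 that ratio was 0.918 and 0.515.

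Among the adhesion receptors, Itga2b, the alpha chain of the fibrinogen receptor (rn5 chr10:90186652-90203600, minus strand), had a log2 signal of 9.49 ± 0.19, 9.91 ± 0.30, 9.77 ± 0.24, 9.83 ± 0.31, 9.56 ± 0.34 and 9.98 ± 0.29 at 0, 1, 2, 3, 6 and 24 h, each the authors' mean ± SD. Its highest means were at 1, 3 and 24 h, with the 6 h mean close to the start, and the SD at every later time was wider than at 0 h. The rise was 1.33-fold at 1 h (log2 change 0.42, 95% interval 0.14 to 0.69, limma FDR 0.0136) and 1.41-fold at 24 h (0.49, 0.22 to 0.76, FDR 0.00477). At 3 h it was 0.34 (FDR 0.0338), a call lost with centred means (FDR 0.0662). The changes of 0.28 at 2 h (FDR 0.0984) and 0.07 at 6 h (FDR 0.697) did not pass. With the spread of the 0 and 2 h arrays alone, the 2 h change did pass (FDR 0.0317). Its partner chain Itgb3, whose symbol stands on no row of the table, is not described here.

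Gp5, the glycoprotein V chain that thrombin cuts from the platelet surface (rn5 chr11:77076191-77079283, plus strand), had log2 signals of 9.86 ± 0.15, 10.40 ± 0.29, 10.15 ± 0.21, 10.22 ± 0.21, 10.08 ± 0.32 and 10.22 ± 0.21 at 0, 1, 2, 3, 6 and 24 h. This was the largest early rise of the 9 genes, 1.45-fold at 1 h (0.54, interval 0.31 to 0.77, limma FDR 2.5e-04). Gp5 was still higher at 2, 3 and 24 h by 0.28, 0.36 and 0.36. The 2 h call (limma FDR 0.0425) was lost in the ordinary test (FDR 0.0523) and with centred means (FDR 0.0752). The 6 h change of 0.22 did not pass (FDR 0.135). Gp9, glycoprotein IX of the same receptor complex (rn5 chr4:184931999-184933334, plus strand), had log2 signals of 9.68 ± 0.32, 10.01 ± 0.26, 9.86 ± 0.28, 9.78 ± 0.23, 9.81 ± 0.32 and 9.90 ± 0.28 at 0, 1, 2, 3, 6 and 24 h. All later means lay above the 0 h mean, but none passed. At 1 h the change of 0.33 had an interval of 0.06 to 0.60 and an FDR of 0.0507, just outside the threshold. At 24 h it was 0.22 with an interval of -0.05 to 0.49, which takes in both no change and the size of the Gp5 change.

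Vwf encodes von Willebrand factor, the ligand of the glycoprotein Ib complex, which endothelial cells make as well (rn5 chr4:225058233-225229257, plus strand). Its log2 signal was 7.76 ± 0.15, 8.16 ± 0.28, 7.97 ± 0.18, 8.06 ± 0.21, 7.87 ± 0.31 and 8.23 ± 0.20 at 0, 1, 2, 3, 6 and 24 h. As with Itga2b, the highest means were at 1, 3 and 24 h. The step from 2 to 3 h was not called for either gene, at 0.07 for Itga2b and 0.09 for Vwf (limma FDR 0.874 and 0.761). The gain of Vwf over 0 h was 1.32-fold at 1 h (0.40, interval 0.18 to 0.62, limma FDR 0.00357) and 1.38-fold at 24 h (0.47, 0.25 to 0.69, FDR 0.0010). At 3 h it was 0.30 (FDR 0.0226), a call lost with centred means (FDR 0.0521). The 2 h and 6 h changes of 0.21 and 0.11 did not pass. With the spread of the 0 and 2 h arrays alone, the 2 h change did pass (FDR 0.0441).

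Of the alpha-granule chemokines, Pf4 passed at no time and Ppbp only at 24 h. Pf4, platelet factor 4 (rn5 chr14:18758191-18758900, minus strand), had log2 signals of 13.06 ± 0.08, 13.10 ± 0.08, 13.08 ± 0.09, 13.04 ± 0.08, 13.001 ± 0.11 and 13.10 ± 0.06 at 0, 1, 2, 3, 6 and 24 h. The 6 means spanned 0.10, and every interval against 0 h took in 0. At 1 h the interval was -0.05 to 0.14 and at 24 h -0.05 to 0.14. Ppbp, pro-platelet basic protein, the source of beta-thromboglobulin (rn5 chr14:18762075-18762879, minus strand), lies next to Pf4 with 3175 bases between them. Its log2 signal was 12.20 ± 0.33, 12.41 ± 0.16, 12.30 ± 0.11, 12.13 ± 0.21, 12.20 ± 0.31 and 12.50 ± 0.11 at 0, 1, 2, 3, 6 and 24 h. The 24 h rise was 1.23-fold (0.30, interval 0.09 to 0.51, limma FDR 0.0278) and was lost with centred means (FDR 0.0649), while the 1 h change was 0.21 (FDR 0.112).

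Both chemokines gave signals near the upper end of the array. The Pf4 probe set had the signal rank 39 of 27596, and the highest mean signal of any probe set was 13.6. Of the 45 probe sets with a mean signal of 13 or more, none changed by over 1 at any time, and their median largest change was 0.08 with a maximum of 0.33. Over the whole array the median was 0.24, and 976 probe sets changed by over 1. At 12 or more, where Ppbp also lies, 360 probe sets had a median of 0.20 and 3 changed by over 1. How far the height of the signal bears on the small changes of Pf4 was not tested.

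**Figure D2:**
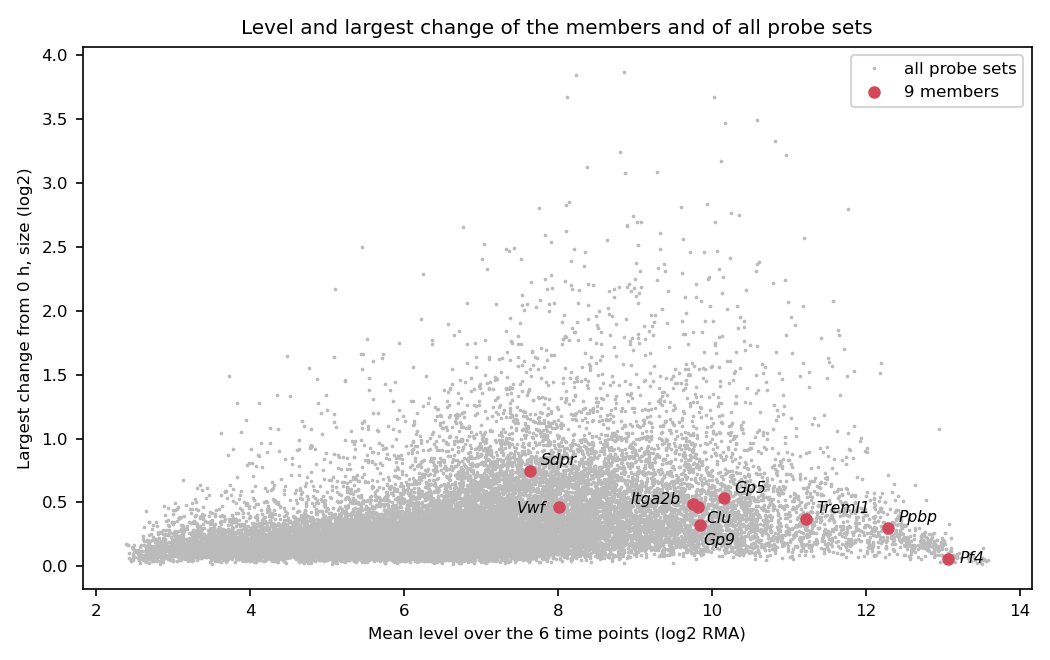
Size of the largest change from 0 h (log2, vertical axis) against the mean signal over the 6 time points (log2 RMA, horizontal axis) for all 27596 probe sets in grey and the 9 platelet genes in red. The grey points narrow toward the upper end of the signal, where Pf4 lies with a largest change of 0.06 in size, and Sdpr has the largest change of the 9 at 0.75.

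Treml1 encodes TLT-1, a receptor stored in alpha granules and brought to the surface on activation, and its probe set has no chromosome position in the table's annotation. Its log2 signal was 11.01 ± 0.18, 11.33 ± 0.28, 11.29 ± 0.26, 11.24 ± 0.23, 11.08 ± 0.25 and 11.38 ± 0.23 at 0, 1, 2, 3, 6 and 24 h. The rises at 1, 2 and 24 h passed, at 0.32, 0.29 and 0.37 (limma FDR 0.0243, 0.0432 and 0.0133), and the changes of 0.23 at 3 h (FDR 0.0912) and 0.07 at 6 h did not. With centred means the FDR was 0.0635 at 1 h and 0.0759 at 2 h. Clu encodes clusterin, a secreted chaperone that platelets carry in alpha granules and that many other cells make (rn5 chr15:48926511-48965756, minus strand). Its log2 signal was 9.55 ± 0.13, 10.02 ± 0.25, 9.91 ± 0.17, 9.79 ± 0.22, 9.66 ± 0.30 and 9.97 ± 0.17 at 0, 1, 2, 3, 6 and 24 h. Its means stepped down from 1 h to 6 h and were up again at 24 h. Clu rose 1.38-fold at 1 h (0.47, interval 0.26 to 0.67, limma FDR 3.66e-04), by 0.36 at 2 h and by 0.42 at 24 h (FDR 0.00163), and its 3 h change of 0.24 fell just outside the threshold at an FDR of 0.0536.

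Sdpr, now named Cavin2, is a caveola coat protein that binds phosphatidylserine and was first known from platelets, and it is also made by endothelial and other cells (rn5 chr9:54940714-54952755, minus strand). Its log2 signal was 7.28 ± 0.15, 7.68 ± 0.19, 7.66 ± 0.14, 7.62 ± 0.14, 7.57 ± 0.26 and 8.03 ± 0.20 at 0, 1, 2, 3, 6 and 24 h. It was the only one of the 9 genes called at all 5 later times, holding 0.39, 0.38, 0.34 and 0.29 through 6 h before reaching 0.75, or 1.68-fold, at 24 h (interval 0.57 to 0.93, limma FDR 1.72e-08). The 24 h mean less its SD still lay above the 0 h mean plus its SD.

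**Figure D3:**
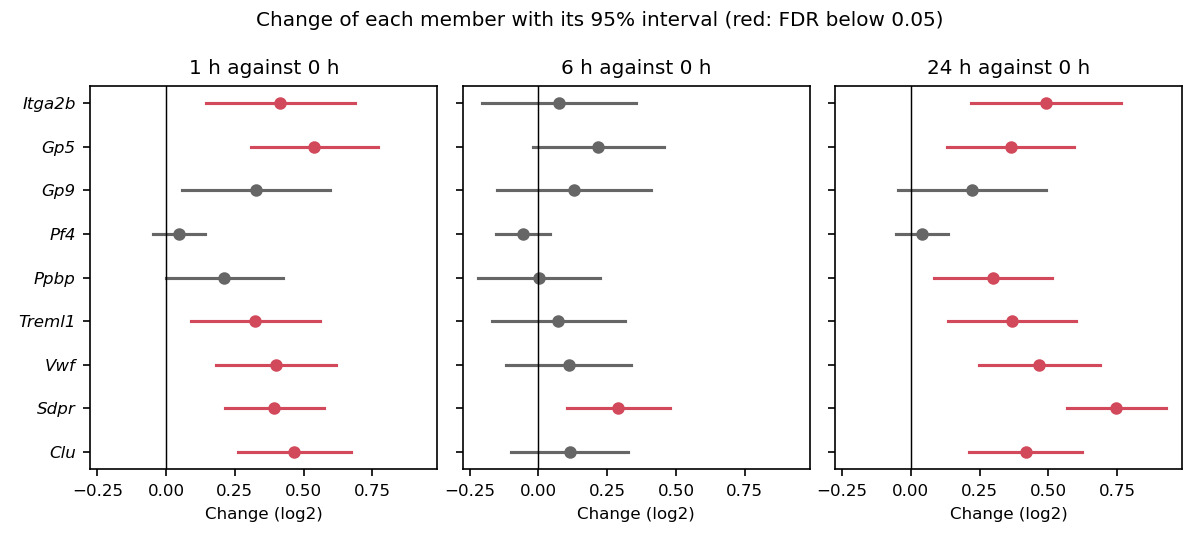
Change from 0 h (log2, horizontal axis) of each measured platelet gene at 1, 6 and 24 h, with its 95% interval from the moderated model; red marks an FDR below 0.05. In the left panel 6 genes are red, in the middle panel only Sdpr and in the right panel 7, and the Pf4 intervals are the narrowest.

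The steps from one time point to the next were tested as well. No member was called between 1 and 2 h, between 2 and 3 h or between 3 and 6 h in the limma model, against 4.66% and 4.11% of all probe sets higher and lower in the earliest of these steps, 1.9% and 1.62% in the next and 2.34% and 2.44% in the last. At an unadjusted p below 0.05 only Gp5 passed, lower at 2 h than at 1 h, and the ordinary test without moderation called 0 as well. From 6 to 24 h, 4 members rose (10.2% of all probe sets), Sdpr by 0.46 (FDR 2.04e-04), Itga2b by 0.42 (FDR 0.0277), Vwf by 0.36 (FDR 0.0187) and Clu by 0.30 (FDR 0.0349), and none fell (8.68% of all probe sets). Ppbp and Treml1 had steps of about the same size, both 0.30, at FDRs of 0.0513 and 0.0791. With the spread of the 6 and 24 h arrays alone, 2 of the 4 calls, Vwf and Sdpr, were made. Gp5 gained 0.14 (FDR 0.460).

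The fall from the 1 h level was tested after the values had been seen. At 6 h, 2 members were lower than at 1 h (10.8% of all probe sets), Clu by -0.35 (limma FDR 0.0126) and Gp5 by -0.32 (FDR 0.0486, and 0.0623 in the ordinary test). No member was higher (8.55%). The other 7 also had lower means at the later time, by -0.34 for Itga2b and -0.29 for Vwf without passing. At 24 h 1 member, Sdpr, was higher than at 1 h, by 0.35 (FDR 0.0089), where 2.6% of all probe sets were higher and 3.25% lower. The other 8 had intervals that took in 0, with means from -0.18 (Gp5) to 0.09 (Ppbp) against 1 h, 4 of them above it and 4 below it. The median SD of the 9 genes between arrays was 0.15, 0.26, 0.18, 0.21, 0.31 and 0.20 at the 6 times in turn, and over all probe sets it lay between 0.14 and 0.16.

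Other platelet and megakaryocyte genes were listed by role, 71 in all, and 66 were measured. At the 5 later times in turn, 41, 23, 24, 15 and 33 rose and 7, 6, 4, 3 and 2 fell. The shares that rose were 62.1%, 34.8%, 36.4%, 22.7% and 50%, beside 21.7%, 21.7%, 27.3%, 22.5% and 17.4% of all probe sets. The shares that fell were 10.6%, 9.09%, 6.06%, 4.55% and 3.03%, beside 15.4%, 18.6%, 19.2%, 19.3% and 13.9%. From 6 to 24 h, 24 rose (36.4%, against 10.2% of all probe sets) and 5 fell (7.58%, against 8.68%). The median change was 0.23, 0.16, 0.14, 0.05 and 0.19 at the 5 times.

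Of 18 further surface receptors, 14 rose at 1 h and 11 at 24 h, and the others did not pass. P2rx1, an ATP-gated ion channel of platelets, had mean log2 signals of 8.59, 9.59, 8.99, 8.91, 8.81 and 9.56 from 0 to 24 h. It was about 1 log2 unit higher at 1 h (2.01-fold, limma FDR 2.4e-07) and at 24 h (1.96-fold, FDR 7.9e-07) and 0.22 higher at 6 h without passing. Selp, P-selectin, the alpha-granule and endothelial adhesion molecule that binds leukocytes, went from a mean log2 signal of 6.70 at 0 h to 7.02, 7.41, 7.85 and 8.10 at 1, 2, 3 and 6 h and 7.23 at 24 h. Its rise was highest at 6 h, 2.64-fold (FDR 2.9e-15), where of the members only Sdpr was called.

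Of 16 genes of granule contents and granule formation, 8 rose and 2 fell at 1 h, where 15.4% of all probe sets fell, and 7 rose at 24 h. Cd63, a granule membrane protein that leukocytes also carry, had a mean log2 signal of 8.42 at 0 h and 9.50, 10.14, 10.10, 10.34 and 9.20 later, also highest at 6 h (1.92, or 3.78-fold, limma FDR 2.3e-17). Serpine2, an inhibitor of thrombin, had mean log2 signals of 6.45, 6.82, 6.73, 6.72, 6.67 and 7.13, with rises of 0.36 at 1 h (FDR 0.025) and 0.68 at 24 h (FDR 9.0e-05) and none passing between.

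Of 18 cytoskeleton and signalling genes, 10 rose and 2 fell at 1 h, beside the same 15.4%, and 9 rose at 24 h. Vcl, vinculin, which ties integrins to actin, rose by 0.30 at 1 h and 0.56 at 24 h (limma FDR 1.6e-04). Rasgrp2, which switches on the GTPase that activates the Itga2b integrin and is also made by lymphocytes, fell by 0.33, 0.30, 0.55 and 0.50 at 1, 2, 3 and 6 h, with the 24 h change of -0.19 not passing (FDR 0.061). Among 4 eicosanoid enzymes, Tbxas1, thromboxane synthase, which monocytes also make, had changes of 0.21, 0.76, 0.82, 1.04 and 0.15, passing at 2, 3 and 6 h. Alox12, platelet 12-lipoxygenase, rose by 0.28 at 1 h and 0.57 at 24 h (FDR 6.6e-05).

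Of 10 megakaryocyte transcription factors, 7 rose and 2 fell at 1 h, and 5 rose and 2 fell at 24 h, where 15.4% and 13.9% of all probe sets fell. Gata1, which drives both megakaryocyte and red cell genes, had mean log2 signals of 9.73, 10.40, 10.05, 10.08, 9.67 and 10.06 and rose 1.59-fold at 1 h (limma FDR 4.5e-05), with -0.06 at 6 h. Meis1, a homeobox partner in megakaryocyte and stem cell genes, rose by 0.40, 0.47, 0.43 and 0.58 at 1, 2, 6 and 24 h. The 2 that fell at 1 and at 24 h, named after their values were seen, were Fli1 and Runx1, which leukocytes also use. Fli1, an ETS factor, was lower at all 5 times, by between 0.31 and 0.54.

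**Figure D4:**
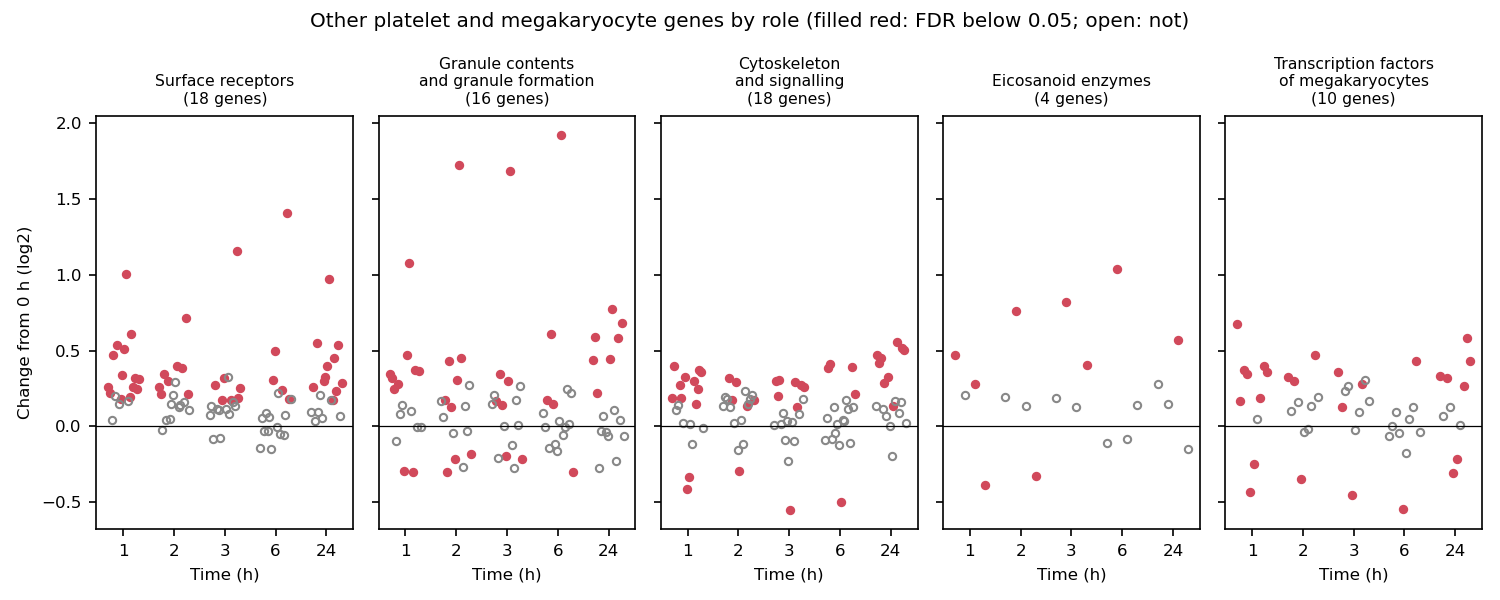
Change from 0 h (log2, vertical axis) of the 66 other platelet and megakaryocyte genes at 1, 2, 3, 6 and 24 h, in a panel for each role. Each point is a gene, filled red at an FDR below 0.05 and open otherwise; the points above 1.5 are Cd63 at 2, 3 and 6 h.

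Markers of other blood and vessel cells moved in the same samples. The 8 erythroid markers, which label young red cells, had their highest means at 1 and 24 h, as the platelet genes did. Their mean log2 signal was 11.39 at 0 h and 11.66, 11.50, 11.52, 11.26 and 11.71 later. At 1 h 5 of the 8 rose (21.7% of all probe sets) and at 24 h 5 of the 8 (17.4%), among them Slc4a1, the band 3 anion exchanger, by 0.34 and 0.58. The part of the erythroid change in the platelet genes was not tested.

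The 8 measured endothelial markers, listed because endothelial cells also make Vwf, Sdpr and Selp, had a mean log2 signal of 6.15 at 0 h and between 6.22 and 6.31 later. At 1 h 3 rose and 1 fell (21.7% and 15.4% of all probe sets), and at 24 h 3 rose (17.4%), of which Tek, the angiopoietin receptor, rose by 0.81 (limma FDR 2.8e-05). The 7 heart muscle markers, listed because of the heart puncture, had a mean log2 signal of 6.12 at 0 h, between 6.20 and 6.22 at the 4 later tail-vein times and 6.22 at 24 h. Of these markers 4 were called higher at 3 h (27.3% of all probe sets) and 3 at 24 h (17.4%), with changes of at most 0.22 and 0.23. Neutrophil markers had mean changes of 0.96, 1.37, 1.15, 1.51 and 0.43 at the 5 times, T cell markers between -1.12 and -0.52, and B cell markers -1.52, -2.07, -2.09, -1.70 and -0.54. The 7 neutrophil markers were split at 24 h, where 5 rose and 1, Ngp, fell, with a change of -0.90 (limma FDR 0.00259). The 6 monocyte markers went opposite ways, with 3 higher and 3 lower at 2, 3 and 6 h and single changes from -1.45 to 1.84 at 3 h. The members' own mean change was 0.35, 0.23, 0.20, 0.11 and 0.38. How far these shifts in the blood cells bear on the platelet genes was not tested.

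**Figure D5:**
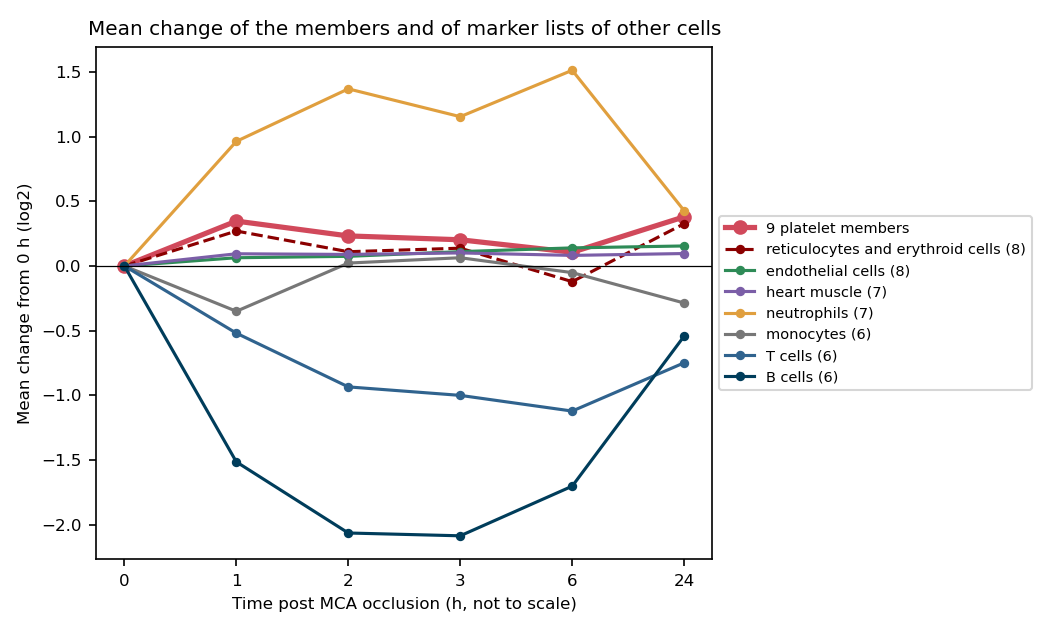
Mean change from 0 h (log2, vertical axis) of the 9 platelet genes and of marker lists of 7 other cell types, with the number of genes in brackets, against hours post MCA occlusion (horizontal axis, not to scale). Each line joins means over the genes of a list; the erythroid line, dashed, lies at 0.27 at 1 h, -0.12 at 6 h and 0.33 at 24 h beside 0.35, 0.11 and 0.38 for the platelet genes.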

How the data were processed

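Whole-blood RNA of 8 rats was hybridised to 47 Affymetrix RaGene-1_0-st-v1 arrays. Per the file headers, the authors summarised the arrays to gene-level RMA signals, deposited as log2 means and standard deviations for each time point, with an rn5 annotation. The SDs were taken to be on the log2 scale from their size. The deposited table also holds the authors' fold changes, p-values and FDRs, which were not used, and 47 columns of single arrays, whose names match no sample label and which were not used either. The submitters' processing notes name limma.

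Group means, SDs and array numbers were entered in limma's variance moderation (version 3.58.1 in R 4.3.3), with 41 residual and 5.71 prior degrees of freedom, and p-values were adjusted by Benjamini-Hochberg over all 27596 probe sets at a threshold of 0.05. Intervals are 95%. The procedure was tested on simulated data. No filter was applied, and the number of arrays limits the precision. Arrays of 1 rat were counted as independent, so p-values measure the spread between arrays with differences between rats left in it.

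All 10 genes are named whatever their values. Of each further list, the 2 genes with the largest change at any time among those with an F-test FDR below 0.05 are named, along with genes needed to say what did not change and the 8 genes nearest in course. Members, lists and markers were chosen with earlier results of these data known. Alternatives were the ordinary test, means centred on their median, the spread of the compared time points alone, an intensity trend with a robust prior, leaving out the lowest 25% of probe sets, the 24 h samples or the 0 h samples, and medians over members above the median level. Values of some single marker genes are not reported here.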

Additional observations from a re-analysis of the deposited data

How the results depend on the processing

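Of the alternatives, only centring can alter the size of a change, and the others alter its test alone. Of the single changes of a member, 9 lost and 5 gained a call under at least 1 alternative and 5 turned. Between 5 and 7 members were called higher at 1 h, 1 at 6 h and 6 or 7 at 24 h under every alternative run for them. At 2 h, 2 members rose in place of 4 with the ordinary test and also with centred means (Sdpr and Clu both times), and at 3 h 2 rose in place of 4 with centred means (Gp5 and Sdpr). From 6 to 24 h, 2 rose in place of 4 (Vwf and Sdpr) when the spread of those time points alone was used. From 1 to 6 h, 1 fell in place of 2 (Clu) with the ordinary test and with centred means. Without the 24 h samples the F-test called 5 members in place of 7, and with centred means it called 6, with Treml1 lost. Each was a move of under 1.5 times. Without the 0 h samples, chosen after seeing the data, the F-test called 2 members (Ppbp and Sdpr) in place of 7. Centring turned 5 changes near 0, Pf4 to -0.0015 at 1 h and -0.0061 at 2 h, Ppbp to -0.027 at 6 h, Sdpr to 0.0020 from 1 to 2 h and Pf4 to 0.0018 from 1 to 24 h. It also took the 1 h rise of Treml1 and the 24 h rise of Ppbp over the threshold (FDR 0.0635 and 0.0649). The cause was not tested.

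Single arrays could not be left out in turn, since only means and SDs were used. No paired analysis was possible because the columns of single arrays carry no rat number. A test over every probe set of a symbol gave nothing new, as each member has 1. No member was left out by the filter on low signals, and all lie above the median level, so medians over such members could not differ.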

Other observations

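The genes nearest in course to the 6 members called higher at 3 or more times (Itga2b, Gp5, Treml1, Vwf, Sdpr and Clu) were ranked by the root mean square difference of their log2 changes at the 5 later time points. The ranking covered 20070 of the 21406 probe sets with a gene symbol, and the members were among those left out. The mean change of those 6 members was 0.42, 0.30, 0.30, 0.15 and 0.48. The nearest was Arhgef37, with 0.42, 0.29, 0.34, 0.13 and 0.46 and a difference of 0.0188. Muc20, a membrane mucin, followed at 0.0263 and Sidt2, a lysosomal transmembrane protein, at 0.0349. Mrvi1, a target of cGMP-dependent kinase in smooth muscle and platelets, differed by 0.0352 and had 0.48, 0.31, 0.30, 0.20 and 0.47. Bfsp2, a lens filament protein, differed by 0.0354, Fez2 by 0.0376 and Rbpms2, an RNA-binding protein, by 0.0418. Gucy1a3, a subunit of the soluble guanylate cyclase through which nitric oxide acts on platelets, differed by 0.0465, with 0.49, 0.24, 0.32, 0.20 and 0.50. The ranking rests on 5 time points that share the 0 h arrays, and is given as a description without a test.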
